A study of Homo sapiens with 18 samples.

Results

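The GATA family was examined here through 5 of its genes, GATA2, GATA3, GATA4, GATA5 and GATA6, named by family and not by any measured value. Peaks of RING1B, of monoubiquitinated histone H2A (H2Aub1) and of EWSR1-FLI1 were taken wherever they reached within 50 kb of a gene body. These windows held 137 of the 45354 peaks of 5 lists, namely 11 of 2573 and 13 of 3945 RING1B peaks, 67 of 26423 and 46 of 10268 H2Aub1 peaks, and 0 of 2145 EWSR1-FLI1 peaks. All lists come from untreated A673 cells, 1 established Ewing sarcoma line, by chromatin immunoprecipitation and sequencing, with 2 replicates for RING1B (MBL antibody D139-3), 2 for H2Aub1 (Cell Signalling antibody D27C4) and 1 sample for EWSR1-FLI1 (Abcam antibody ab15289). Whether the replicates were grown separately is not stated in the labels, and their agreement can reflect technical repeats. The lists give no read counts, so sequencing depth is unknown and a missing peak does not show that signal was absent. They hold no expression values either, and the identity of the line was not checked against marker genes. No test was run, because 5 genes chosen by name with earlier results known cannot be treated as replicates, and the values below are a description.

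GATA factors bind DNA through zinc fingers that recognise the letters GATA, and they set the identity of blood, immune, heart and gut lineages. GATA2 is needed in blood stem cells, GATA3 in T cells and the luminal cells of the breast, and GATA4, GATA5 and GATA6 in heart and endoderm. In cells of other lineages, genes of this kind are textbook targets of Polycomb. RING1B is the catalytic subunit of Polycomb repressive complex 1 and places a ubiquitin on histone H2A, and the complex tends to gather at promoters rich in the dinucleotide CG. EWSR1-FLI1 is the fusion protein that drives Ewing sarcoma and binds GGAA letters through its ETS domain.

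The 250 bases before the gene start are shown for GATA2, GATA3 and GATA6, whose promoter sequences were available here. Of these, GATA3 and GATA6 had RING1B peaks close by and GATA2 had none. Capitals mark each CG. Sequences come from RefSeq (GRCh38.p14), and for each gene the start was taken whose distance to the gene's end came closest to the length of the hg19 gene body (within 14, 13 and 148 bp). GATA4 and GATA5 are named only.
GATA2 (GRCh38.p14, chr3:128493202-128493451, minus strand): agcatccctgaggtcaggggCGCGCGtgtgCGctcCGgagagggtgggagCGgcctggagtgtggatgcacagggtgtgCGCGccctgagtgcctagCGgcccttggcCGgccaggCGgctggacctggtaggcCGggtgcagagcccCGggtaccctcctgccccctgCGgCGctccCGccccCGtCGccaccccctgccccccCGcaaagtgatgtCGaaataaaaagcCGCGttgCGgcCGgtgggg
GATA3 (GRCh38.p14, chr10:8054438-8054687, plus strand): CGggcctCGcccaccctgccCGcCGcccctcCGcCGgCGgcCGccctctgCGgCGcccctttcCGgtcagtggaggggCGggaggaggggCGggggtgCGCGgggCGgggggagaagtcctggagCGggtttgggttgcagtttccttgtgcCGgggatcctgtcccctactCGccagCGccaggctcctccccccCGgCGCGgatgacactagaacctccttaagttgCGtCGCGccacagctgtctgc
GATA6 (GRCh38.p14, chr18:22169339-22169588, plus strand): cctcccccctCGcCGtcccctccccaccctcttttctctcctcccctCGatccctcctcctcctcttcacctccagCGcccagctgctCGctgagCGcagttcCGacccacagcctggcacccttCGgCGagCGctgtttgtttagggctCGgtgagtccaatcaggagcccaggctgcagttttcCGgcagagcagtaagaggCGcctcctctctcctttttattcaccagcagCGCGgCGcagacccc
Each held more CG than the median promoter, with 24 in GATA2, 26 in GATA3 and 16 in GATA6, against a median of 11 over 35116 RefSeq promoters cut to the same 250 bases. The bases of GATA2 thus held more CG than those of GATA6. In hg19 the nearest upstream reproducible RING1B region ended 547 bp before the start of GATA3 and 788 bp before that of GATA6. The 250 bases counted do not reach these regions, and whether CG content goes with RING1B was not tested. The letters GGAA, searched on both strands, occurred 0 times in GATA2, 2 times in GATA3 and 2 times in GATA6, and 92.7% of all promoters held them. The letters AGATAA, also on both strands, occurred in none of these 3 windows, and 9.17% of all promoters held them. The counts depended on the start taken. The 250 bases before another RefSeq start of GATA2 held 18 CG and 2 GGAA. Those before the other starts of GATA3 held 4 to 30 CG and 2 to 6 GGAA.

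RING1B occupied the surroundings of GATA3, GATA4 and GATA6 and was not found within 50 kb of GATA2 or GATA5. A region was called reproducible when peaks of both replicates shared at least 1 bp and were merged. Of the 5 genes, 3 had a reproducible RING1B region within 50 kb, where 4.48% of all consecutive 100 kb windows of hg19 held one (1385 of 30946, 6.39% with windows of 150 kb). Each of the 5 genes had a reproducible H2Aub1 region within 50 kb, where 10.9% of the 100 kb windows held one (14.6% of those of 150 kb). The gene windows were 112474 to 155793 bp long, and the genome windows were not matched for gene content. There were 9 reproducible RING1B regions, 2 at GATA3, 4 at GATA4 and 3 at GATA6. All 9 overlapped a reproducible H2Aub1 region by at least 1 bp, 1 of them at GATA6 by 81 bp alone. Of the 9, 0 overlapped an EWSR1-FLI1 peak. Among all 1587 reproducible RING1B regions, 19.8% overlapped H2Aub1 and 56.2% overlapped EWSR1-FLI1. The windows held no EWSR1-FLI1 peak, so the count of 0 follows from that absence and is not a separate result. Regions of 1 gene share their surroundings and are not independent. The 9 regions were also wide, from 1516 to 5513 bp with a median of 2643 bp, where the median over the 1587 regions was 1284 bp.

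**Figure D1:**
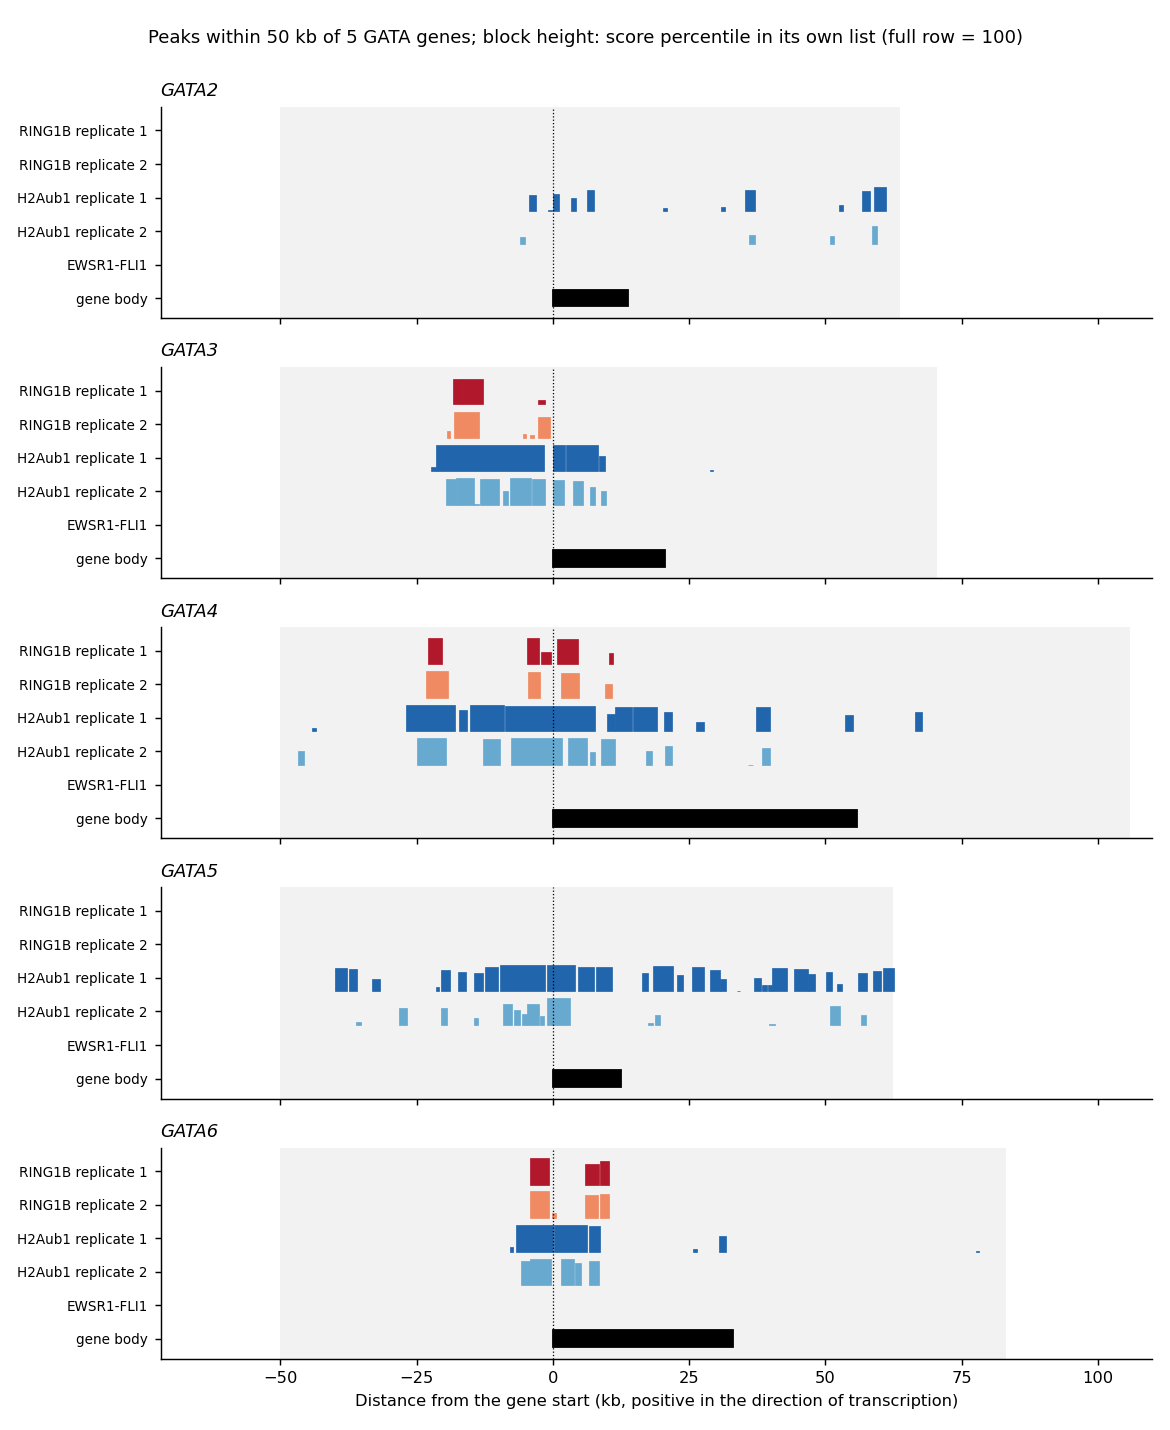
Peaks of the 5 lists around each gene, by distance from the gene start in kb (horizontal axis, positive in the direction of transcription), with 1 row per list, the gene body in black and the 50 kb window in grey. Block height is the percentile of the peak's score within its own list. RING1B blocks appear at GATA3, GATA4 and GATA6 alone, H2Aub1 blocks at all 5 genes, and the EWSR1-FLI1 rows are empty.

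GATA6, a regulator of endoderm and heart, carried the RING1B peak with the highest score of the family. The gene lies on chromosome 18 from 19749404 to 19782491 (hg19, plus strand). Just upstream of its start, RING1B replicate 1 had a peak of 3416 bp and replicate 2 a peak of 3344 bp with nearly the same edges, and the merged region ran from 19745201 to 19748616. The authors' score, given to each peak on a scale not named in the sources used here, was 3100 in replicate 1 (rank 1 of 2573, a value that 4 peaks shared) and 2615.6 in replicate 2 (rank 4 of 3945). The highest score of H2Aub1 replicate 1 was also 3100, so this value may be a ceiling of the score, which was not tested. The region ended 788 bp before the gene start. Within the gene body, 2 further RING1B regions lay at 19755264 to 19757906 (scores 168 and 184) and 19757975 to 19759659 (304 and 219), 5860 to 10255 bp downstream of the start. Replicate 2 alone had a small peak of 639 bp over the start itself (score 58.1, rank 3137). H2Aub1 formed 3 reproducible regions here, from 19742581 to 19749440 (scores 1836 and 484, ranks 42 and 186), 19749567 to 19755610 (1436 and 323) and 19755979 to 19758055 (413 and 211). In replicate 1 the mark filled nearly all of the space between the upstream RING1B region and the next one in the gene, whereas in replicate 2 it was broken from 19749117 to 19750949 and again from 19754516 on. Merged over replicates, it covered the whole upstream region, 86.1% of the next and 4.81% of the last.

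GATA4, a heart and endoderm regulator, had the most RING1B regions of the family. It lies on chromosome 8 from 11561717 to 11617509 (plus strand). The highest-scoring of its 4 regions was the most distant, at 11538360 to 11542409, with scores of 1438 and 1240 (ranks 22 and 15), and it ended 19308 bp upstream of the start. The next ran from 11556871 to 11559346, ending 2371 bp upstream, with scores of 812 and 415. Inside the gene, a region of 3954 bp lay at 11562466 to 11566419 (464 and 255) and a weak one at 11571270 to 11572785 (78.6 and 79.2). Another peak, 337 bp upstream of the start, was found in replicate 1 alone (score 82.9). All 4 reproducible regions lay wholly within reproducible H2Aub1 regions. That mark formed 7 reproducible regions at GATA4, of which the widest spanned the gene start from 11552839 to 11569524 (16686 bp, rank 29 by width of 6408, scores 494 and 984), and the one around the distant RING1B region ran from 11534799 to 11543806 (scores 1248 and 785, ranks 151 and 54). The gene body used here is 55793 bp long, and RefSeq on GRCh38 gives GATA4 83068 bp, so upstream regions may lie within longer annotated transcripts. This was not tested, since coordinates were not moved between builds.

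GATA3, which directs T helper and luminal breast cell identity, had its RING1B on the upstream side alone. It lies on chromosome 10 from 8096667 to 8117164 (plus strand). The main region, at 8078383 to 8083895, was the widest RING1B region of the family with 5513 bp (rank 18 of 1587) and ended 12772 bp before the start, with scores of 519 and 442 (ranks 154 and 135). A second region at 8093880 to 8096120 reached to 547 bp before the start, and its replicates differed, with a score of 56.8 in replicate 1 (rank 2199) and 129 in replicate 2 (rank 941). Replicate 2 held 3 more small peaks, of 613 to 668 bp with scores of 54.1 to 60.7, that replicate 1 lacked. Around the main region and these 3 small peaks lay the widest H2Aub1 region of the family, from 8075303 to 8095253 (19951 bp, rank 11 by width of 6408). The second RING1B region ran past the end of this H2Aub1 region, and 61.3% of its bases lay under the mark. In replicate 1 the H2Aub1 region was 1 unbroken peak of 19770 bp with a score of 790, and in replicate 2 it was 7 peaks with scores of 50.4 to 486. A region of H2Aub1 over the start (8096616 to 8098856, scores 569 and 212) and 2 in the gene body (8099037 to 8105015, scores 858 and 191, and 8105060 to 8106468) followed, and RING1B overlapped none of these 3. RefSeq on GRCh38 lists 6 starts for GATA3 spread over 15124 bp, so the stretch upstream of the hg19 start may hold other promoters of the gene, and GATA3-AS1 is a neighbour in the same table.

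GATA5, a further heart and gut regulator, had strong H2Aub1 and no RING1B peak. It lies on chromosome 20 from 61038553 to 61051026 (minus strand, so that its start is the higher coordinate). The region over the start ran from 61047053 to 61052099, with scores of 1054 in replicate 1 (rank 243) and 622 in replicate 2 (rank 101). Upstream of it a region from 61052506 to 61060652 was 1 peak in replicate 1 (score 1186, rank 182). In replicate 2 it was 5 peaks of 823 to 2284 bp, the highest score being 129. Of the 9 reproducible H2Aub1 regions, 4 lay upstream, 1 over the start and 4 beyond the gene's end. The nearest RING1B peak was 55.7 kb from the gene body in replicate 2 (score 60.7, rank 2943) and 3215 kb away in replicate 1. Much of this mark was shared with its neighbourhood: outside the window, out to 1 Mb from the gene body, H2Aub1 peaks covered 18.9% of bases in replicate 1 and 7.57% in replicate 2, and the gene lies 1.97 Mb from the chromosome end. Whether its place near the chromosome end has a part in this was not tested.

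GATA2, the blood stem cell factor, had no RING1B peak and the least H2Aub1 of the 5 genes by covered bases. It lies on chromosome 3 from 128198265 to 128212030 (minus strand). The nearest RING1B peak was 668 kb away in replicate 2 (score 60.3) and 2189 kb in replicate 1. H2Aub1 replicate 1 had 11 peaks in the window with scores of 50.6 to 240, and replicate 2 had 4 with scores of 61.2 to 104. Only 2 places were shared, at 128150985 to 128153477 (scores 240 and 104) and 128174895 to 128176837 (163 and 65.5), both beyond the end of the gene, 58553 and 35193 bp from its start. In replicate 1 a peak of 1057 bp covered the start (score 108) and 2 lay in the gene body (151 and 81.0), and replicate 2 had no H2Aub1 peak in the body or over the start. DNAJB8, a chaperone gene, lies within 50 kb of GATA2 in RefSeq on GRCh38, so peaks beyond the end of GATA2 need not belong to it. The same limit holds for TAF3 near GATA3, NEIL2 and FDFT1 near GATA4, and RBBP8NL near GATA5. Long noncoding RNA genes, such as GATA6-AS1, lie within 50 kb of each of the 5 genes.

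Compared by covered bases, H2Aub1 stood above its surroundings in the windows of all 5 genes. The values describe windows and not genes: at GATA2, replicate 2 had no H2Aub1 peak in the gene body or over the start. In replicate 1 H2Aub1 covered 11.4% of the window at GATA2, 25.3% at GATA3, 33.2% at GATA4, 53.6% at GATA5 and 13.8% at GATA6. In replicate 2 these shares were 3.29%, 18.6%, 19.7%, 18.7% and 8.08%. Replicate 1 was higher at each gene, and its list covered 1.28% of the genome against 0.472% for replicate 2. GATA5 ranked first in replicate 1, but in replicate 2 GATA3, GATA4 and GATA5 differed by far less than the replicates did. GATA2 and GATA6 were lowest in both. Against the flanks out to 1 Mb, the window was 8.41 and 6.07 times as covered at GATA2, 19.5 and 54.2 times at GATA3, 8.6 and 23.8 times at GATA4, 2.83 and 2.48 times at GATA5, and 8.63 and 16.1 times at GATA6. GATA5 thus had the smallest contrast with its flanks in both replicates. Of 27512 genome windows as wide as that of GATA5, 19 were covered by H2Aub1 as much or more in replicate 1 and 95 in replicate 2. These counts were 71 and 52 of 19860 at GATA4 and 167 and 74 of 25676 at GATA3. They were larger at GATA6, with 448 and 269 of 23248, and at GATA2, with 720 and 989 of 27198.

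RING1B covered 5.64% and 7.18% of the window at GATA3, 7.42% and 6.95% at GATA4, and 5.74% and 6.09% at GATA6. No flank of these 3 genes exceeded 0.152%, so the enzyme was concentrated near the genes. At GATA4, 8 of 19860 windows of equal width were covered by RING1B as much or more in replicate 1 and 9 in replicate 2. The corresponding counts were 31 and 17 of 25676 at GATA3 and 22 and 21 of 23248 at GATA6. These genome windows lie on a fixed grid and the gene windows are centred on the gene, so a domain can be divided in the former and not in the latter.

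**Figure D2:**
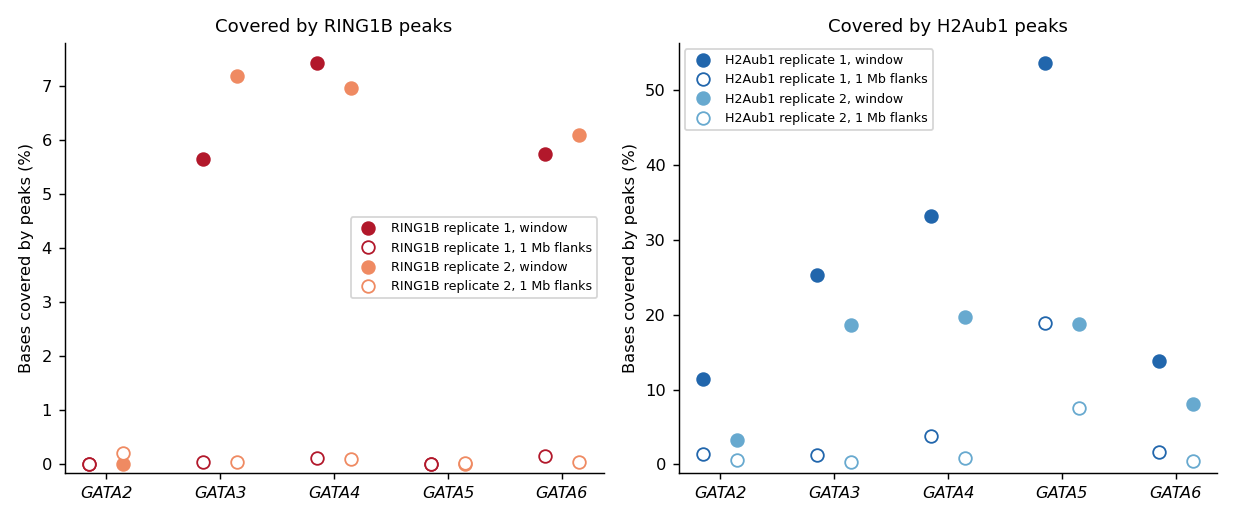
Percentage of bases covered by RING1B peaks (left) and H2Aub1 peaks (right) at each gene, in each replicate. Filled points are the window of 50 kb around the gene body and open points the flanks from there to 1 Mb. RING1B is at 0 in the windows of GATA2 and GATA5, and the open H2Aub1 points of GATA5 (18.9% and 7.57%) lie above those of the other 4 genes.

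At the gene starts, a reproducible H2Aub1 region covered the start of GATA3, GATA4, GATA5 and GATA6, and not that of GATA2. A reproducible RING1B region covered 0 of the 5 starts. The H2Aub1 lists cover more of the genome (1.28% and 0.472%) than the RING1B lists (0.102% and 0.151%). The share of all gene starts under either was not computed. These counts therefore do not compare the marks and are not a result about the family. The nearest RING1B peak edge lay upstream by 1449 and 547 bp at GATA3, 337 and 2371 bp at GATA4, and 788 and 795 bp at GATA6 (replicates 1 and 2). The nearest edge downstream was 749 and 1411 bp away at GATA4 and 5947 and 5860 bp away at GATA6. RING1B peaks thus flanked the starts of GATA4 and GATA6, and at GATA3 lay on the upstream side alone. The exception is the GATA6 peak of replicate 2 over the start. Merging bridged replicates here: over the start of GATA6 the H2Aub1 peak was in replicate 1, and replicate 2 ended 287 bp before it, whereas at GATA3 replicate 2 covered the start and replicate 1 began 25 bp after it. At GATA4 and GATA5 each replicate covered the start by itself.

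Most bases under RING1B in these windows also lay under its mark. Of the bases under RING1B peaks of replicate 1 in the 5 windows, 91.9% lay under H2Aub1 peaks of replicate 1, and for replicate 2 the share was 79.5%. Over the whole lists the shares were 21.5% and 9.55%. By gene they were 97.9% and 85.4% at GATA3, 100% and 87.7% at GATA4, and 74.4% and 62.2% at GATA6. GATA6 was lowest, and 1 of its 3 regions, the last in the gene body, lay almost wholly outside the mark. Conversely, RING1B peaks covered 13.7% and 24.8% of the H2Aub1 bases in the windows, against 1.71% and 3.05% over the whole lists. Most of the mark in the windows thus lay outside RING1B peaks, at GATA5 and GATA2 all of it. This was usual for the lists, where 319 of 6408 reproducible H2Aub1 regions overlapped a reproducible RING1B region.

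Agreement between replicates varied with the gene and the mark. In the windows, 10 of 11 RING1B peaks of replicate 1 and 9 of 13 of replicate 2 overlapped the other replicate, against 1611 of 2573 and 1615 of 3945 over the whole lists. The 4 unshared peaks of replicate 2 had scores of 54.1 to 60.7, low in their list, and the 1 of replicate 1 (82.9) lay near its list's median of 88.9. For H2Aub1, 28 of 67 peaks of replicate 1 and 41 of 46 of replicate 2 were shared, against 7036 of 26423 and 7942 of 10268 over the whole lists. Of the replicate 1 peaks, 18 of 30 at GATA5 and 9 of 11 at GATA2 were not shared. By bases, the replicates' overlap as a share of their union was 87.8% at GATA6, 61.0% at GATA4 and 59.9% at GATA3 for RING1B. For H2Aub1 it was 70.4% at GATA3, 58.6% at GATA6, 50.3% at GATA4, 26.4% at GATA5 and 11% at GATA2. Over the whole lists this share was 33.4% for RING1B and 26.2% for H2Aub1, so GATA5 lay at the level of its list and GATA2 below it.

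**Figure D3:**
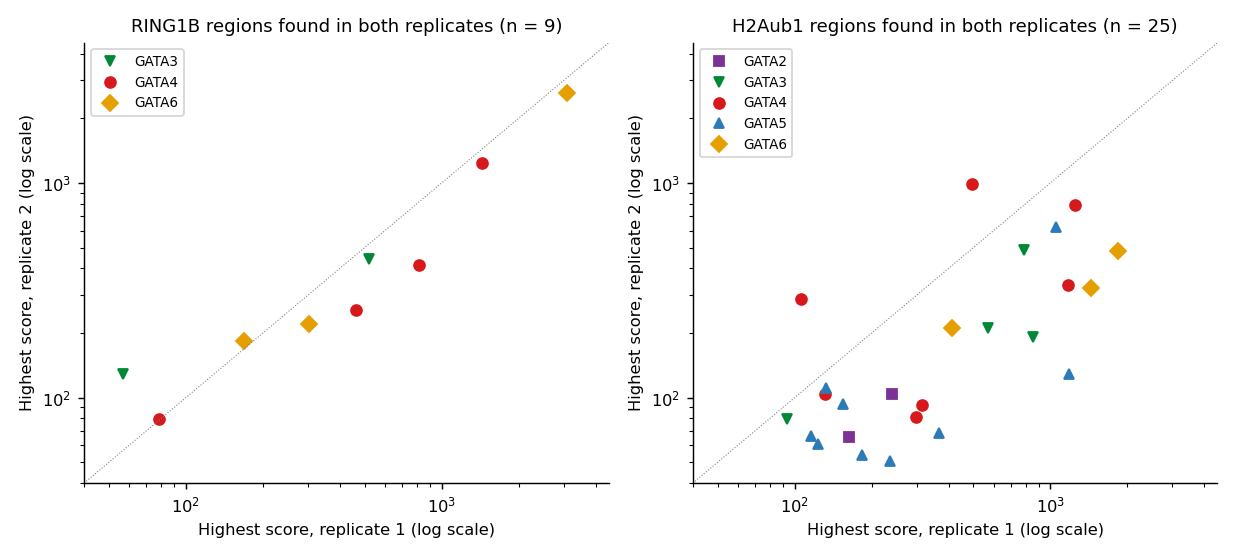
Highest score in replicate 1 against replicate 2 for the 9 RING1B regions (left) and 25 H2Aub1 regions (right) found in both replicates, on log axes, with 1 symbol per gene and the line of equal scores dotted (scores of different lists need not share a scale). The highest RING1B point is the GATA6 region at 3100 and 2615.6, 1 GATA3 region (56.8 and 129) lies clearly above the line, and the H2Aub1 regions lie below it except 2 of GATA4.

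EWSR1-FLI1 was not found at any of the 5 genes, and 6.08% of the 100 kb genome windows held a peak of it (8.69% of those of 150 kb), so a count of 0 among 5 genes lies near this background and is not a result about the family. The nearest peak to a gene body lay 65.6 kb upstream of GATA6, at 19682822 to 19683804 (score 123, rank 810 of 2145). RING1B peaks of both replicates overlapped it, with scores of 86.4 and 88.0, and no reproducible H2Aub1 region did. It was followed by GATA3 at 170 kb downstream (8286897 to 8287756, score 87.2), GATA5 at 506 kb, GATA2 at 744 kb and GATA4 at 1129 kb. RING1B also overlapped the nearest EWSR1-FLI1 peaks of GATA3 and GATA4 in both replicates, that of GATA2 in replicate 2 alone, and that of GATA5 in neither. Over the whole lists, 892 of 1587 reproducible RING1B regions overlapped an EWSR1-FLI1 peak. The share of all EWSR1-FLI1 peaks under RING1B was not computed, so these overlaps are not a result about the family. At GATA6 a high-scoring RING1B region with H2Aub1 thus lay beside the gene. A lower-scoring one with EWSR1-FLI1 and no reproducible H2Aub1 region lay further upstream. These are single sites of 1 locus and do not define classes. The last region in the GATA6 body had 4.81% of its bases under the mark and no EWSR1-FLI1 peak.

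**Figure D4:**
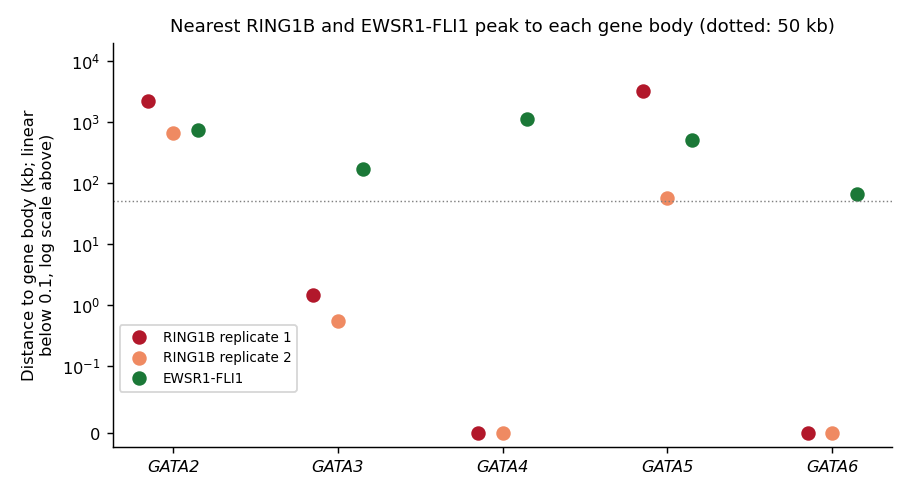
Distance in kb (vertical axis, log scale above 0.1) from each gene body to the nearest peak of RING1B replicate 1, RING1B replicate 2 and EWSR1-FLI1, with the 50 kb limit dotted. RING1B points lie at or under 1.45 kb for GATA3, GATA4 and GATA6 and above the limit for GATA2 and GATA5, and each EWSR1-FLI1 point lies above the limit, the lowest at 65.6 kb for GATA6.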

How the data were processed

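ChIP-seq peak lists of 5 of the 18 samples were used, and the other 13 samples were not analysed here. Groups came from sample titles. Per the submitters' processing notes reads were aligned with Bowtie to hg19, and mm9 is also named for the RING1B and H2Aub1 samples without its use. The peaks are named after MACS (version not given in the sources used here). Each peak carries a score that the authors deposited, of unstated scale, used to rank peaks within their list and set side by side between replicates as a description. Gene bodies are the hg19 coordinates of the family rule. Strands of GATA2, GATA3 and GATA6 came from RefSeq (GRCh38.p14), where all 5 symbols were found, and those of GATA4 and GATA5 from general knowledge. RefSeq served for names, sequences and lengths alone. Chromosome lengths came from GenomeInfoDb 1.38.1 in R 4.3.3, and all else was computed in Python 3.11.15 with code tested on simulated data. Coordinates are 1-based. A list of cofactor and lineage genes was not examined, since an hg19 annotation was not used here.

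The members and lists were chosen with earlier results of these data known. By rule, all reproducible RING1B regions in the windows are named, and for H2Aub1 at least the widest and the highest-scoring region of each gene. The nearest EWSR1-FLI1 peaks, the flanks out to 1 Mb and the 500 kb window were added after the data were seen. Alternatives were windows of 10 and 100 kb, the highest-scoring 50% of each list, the union of replicates, each replicate left out, an overlap of 50% of the shorter region and pairing by replicate number. Precision is limited by the 1 or 2 lists per target.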

Additional observations from a re-analysis of the deposited data

How the results depend on the processing

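Of 55 alternatives for 9 counts, 44 kept the count within 1.5 times. RING1B regions were found at the same number of genes, 3, with windows of 10 and 100 kb, with the highest-scoring 50% of each list, with the union and with each replicate alone. Genes with H2Aub1 were 5 in all of these except the 10 kb window, where there were 4. With a 100 kb window 1 gene had an EWSR1-FLI1 peak and 1 RING1B region overlapped an EWSR1-FLI1 peak, and with 500 kb there were 2 such genes. Using the union, or RING1B replicate 2 alone, 1 gene start lay under RING1B, that of GATA6 (0 to 1 over both left-out replicates). RING1B regions were 14 for the union, all 14 with H2Aub1, and 11 to 13 with a replicate left out. H2Aub1 regions were 16 with a 10 kb window, 69 for the union and 46 to 67 with a replicate left out, since single lists hold peaks that the other lacks. Starts under H2Aub1 were 5 for the union and 3 to 4 with a replicate left out, and the genes differed. With H2Aub1 replicate 1 alone the 4 were GATA2, GATA4, GATA5 and GATA6. With replicate 2 alone the 3 were GATA3, GATA4 and GATA5. No paired test could be made because no result comes from a test. With the replicate block, in which RING1B was compared with H2Aub1 of the same replicate number, 8 of the 9 RING1B regions carried the mark in both numbers. The count with the mark was also 8 without H2Aub1 replicate 1, and 8 with an overlap of 50% of the shorter region. Depth limits every absent peak.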
